A study of Mus musculus with 8 samples.

Results

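Described here are 10 genes of the antioxidant defence of the mouse colon, chosen by name: Nqo1, Gclc, Gclm, Txnrd1, Srxn1, Slc7a11, Gpx1, Gpx2, Sod2 and Prdx1. All 10 were found among the 53465 genes of the deposited table and all were among the 16380 genes tested. RNA was sequenced from 8 mice with colitis, 4 labelled Arg1 ko and 4 labelled Arg1 wt, here called wild type. The Arg1 ko mice carry a conditional, cell-specific deletion of Arg1, which encodes arginase 1, an enzyme that turns arginine into urea and ornithine. The wild-type mice are littermates that express Arg1, and the littermates were separated some weeks before the experiment. The labels name neither the Cre driver nor the cell type of the deletion. Both groups were on the B6 background, matched for age and sex, and 7 to 12 weeks old. Both were given DSS (dextran sulfate sodium, which damages the lining of the colon) at 2.5% in their water for a week and then plain water until day 10. No mice without DSS were analysed here, so every value below is from the colon of a DSS-treated mouse.

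Nrf2, encoded by Nfe2l2, is the transcription factor that drives most of these genes. In an unstressed cell Keap1 holds Nrf2 for destruction by a cullin ubiquitin ligase. Oxidants and electrophiles modify Keap1, Nrf2 then reaches the nucleus, pairs with a small Maf protein and binds antioxidant response elements, while Bach1 competes for the same elements. Among the 10 genes, Slc7a11 is the cystine transporter that brings in the raw material of glutathione. Gclc and Gclm are the catalytic and the modifier subunit of glutamate-cysteine ligase, which makes the rate-limiting step of glutathione synthesis. Txnrd1 is the cytosolic thioredoxin reductase, Prdx1 is a peroxidase that thioredoxin recharges, and Srxn1 repairs overoxidised peroxiredoxins. Nqo1 reduces quinones. Gpx1 and Gpx2 use glutathione to remove peroxides, Gpx2 mainly in the gut epithelium, and Sod2 is the mitochondrial superoxide dismutase. Gpx1, Gpx2 and Txnrd1 are selenoproteins, and Gpx1 and Sod2 are not regarded as classical Nrf2 targets.

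The antioxidant response element has the core TGACNNNGC, where N is any base, and the promoters of the 10 genes were searched for it on both strands. RefSeq windows on GRCm38.p6 from 250 bases before to 50 bases after the transcription start were at hand for 9 of the 10 genes, in 11 windows. The core was found in 4 of these 9 genes, against 14% of all 27025 genes with a window and 12.4% of all 32851 windows. The 4 windows are shown because they are the ones in which the letters of the response element can be read near the start. Each is written 5′ to 3′ on the strand of its gene, and the capitals mark the core, which in all 4 stands in its reverse complement, GCNNNGTCA.
Gclm, chr3:122245307-122245606, plus strand: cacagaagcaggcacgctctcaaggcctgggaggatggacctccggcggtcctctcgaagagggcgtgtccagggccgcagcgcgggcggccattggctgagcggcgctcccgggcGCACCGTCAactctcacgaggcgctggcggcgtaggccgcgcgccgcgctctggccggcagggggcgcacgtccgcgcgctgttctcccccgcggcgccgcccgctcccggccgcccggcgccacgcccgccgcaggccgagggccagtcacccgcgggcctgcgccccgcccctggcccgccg
Txnrd1, chr10:82858956-82859255, plus strand: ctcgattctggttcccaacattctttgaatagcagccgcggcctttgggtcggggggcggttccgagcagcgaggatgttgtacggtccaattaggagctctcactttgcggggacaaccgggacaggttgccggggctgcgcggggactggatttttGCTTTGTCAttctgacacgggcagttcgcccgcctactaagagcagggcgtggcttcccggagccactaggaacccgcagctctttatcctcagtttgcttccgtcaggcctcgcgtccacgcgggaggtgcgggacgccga
Srxn1, chr2:152105274-152105573, plus strand: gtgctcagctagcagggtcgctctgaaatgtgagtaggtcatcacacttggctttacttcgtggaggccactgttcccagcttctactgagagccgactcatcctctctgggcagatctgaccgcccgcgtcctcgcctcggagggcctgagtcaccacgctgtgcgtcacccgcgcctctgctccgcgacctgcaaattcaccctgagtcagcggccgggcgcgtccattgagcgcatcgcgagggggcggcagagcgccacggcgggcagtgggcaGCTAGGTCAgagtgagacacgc
Prdx1, chr4:116685349-116685648, plus strand: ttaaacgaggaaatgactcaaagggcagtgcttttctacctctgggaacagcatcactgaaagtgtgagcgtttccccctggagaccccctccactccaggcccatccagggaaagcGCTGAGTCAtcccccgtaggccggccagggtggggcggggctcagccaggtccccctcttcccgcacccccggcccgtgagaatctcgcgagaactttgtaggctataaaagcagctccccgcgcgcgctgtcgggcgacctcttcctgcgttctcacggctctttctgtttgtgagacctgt
The core began 134 bases before the start in Gclm, 92 before it in Txnrd1 and 133 before it in Prdx1, and at base 28 after the start in Srxn1. In Prdx1 it overlaps the AP-1 motif TGACTCA. That motif was found in Prdx1 and Srxn1, against 5.95% of all genes with a window. Txnrd1 has 3 windows in the table, of which 1, at a start inside the gene, held the core. A match of letters is a description of the window and not of binding, and response elements farther from the start were not searched.

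For none of the 10 genes was the difference between the genotypes larger in size than the SD among the wild-type mice. It was larger than the SD among the ko mice for Gpx1, Prdx1 and Sod2, whose ko SDs were 0.096, 0.097 and 0.044. The values are regularised log2 values (rlog), on which a difference of 1 is a factor of 2, and differences are given as Arg1 ko minus wild type. The 10 differences ran from -0.37 for Gpx1 to 0.059 for Gclm, with adjusted p-values from 0.525 to 0.984 (limma over all tested genes). In Arg1 ko 4 of the 10 genes were higher and 6 lower, the median being -0.082, beside a median of 0.0064 over all tested genes, 48.8% of which were lower. The number past an adjusted p of 0.05 was 0 of 10, as it was 0 of 16380 over all genes (0%). At an unadjusted p under 0.05 there were again 0 of the 10, where the share over all genes was 9.1%. In 0 of the 10 did the groups lie apart, where 4.03% of all genes had groups that did not overlap. In each of the 10 genes all 4 Arg1 ko values lay inside the range of the wild-type values, which held for 52.3% of all tested genes. In each gene both the highest and the lowest of the 8 values were therefore wild type. That count of 10 rests on single wild-type libraries: it was 6 without wild type 1, 9 without wild type 2, 6 without the library labelled wild type 3 and 4 without wild type 4. It was 2 without wild type 1 and 2, and 7 after quantile normalisation. Leaving out a wild-type library can only narrow the range, so a count of 10 could not rise. No share over all tested genes is at hand for these settings.

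**Figure D1:**
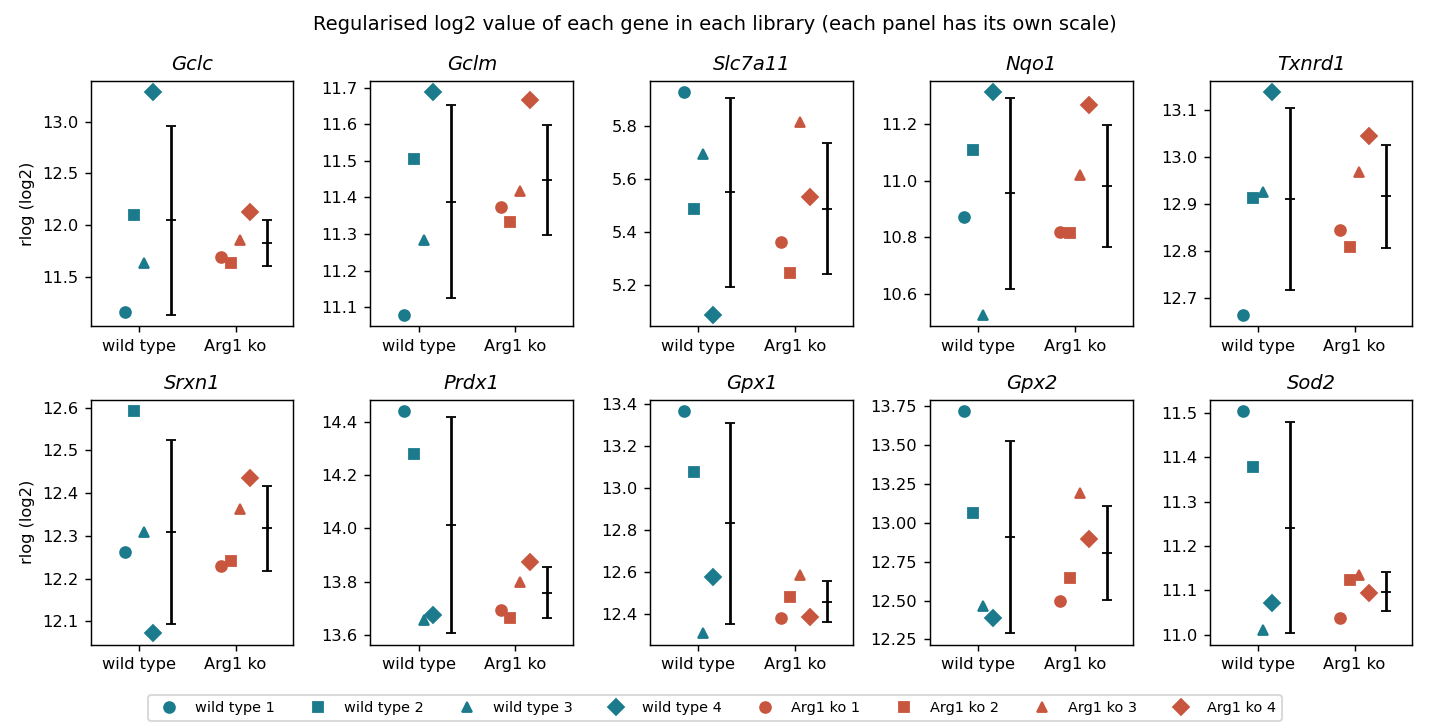
Regularised log2 value (vertical axis, a separate scale for each gene) of the 10 genes in the 4 wild-type and 4 Arg1 ko libraries. Points are libraries, and the bars give the mean ± SD of each group. The triangle in the wild-type column is the library labelled wild type 3. In each panel the highest and the lowest point are wild type, and Gclc reached 13.28 in wild type 4.

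Before the genes are taken in turn, some facts on the libraries are needed. Arg1, the deleted gene, had 5.59, 5.57, 5.02 and 5.58 in the 4 wild-type libraries, taken in order. The ko libraries had 5.06, 4.87, 5.15 and 5.19. The third wild-type library, written as the library labelled wild type 3 throughout, has its Arg1 value within the ko values. Arg1 was a weak gene here, as only 16.8% of the tested genes had a lower mean. With the cell type of the deletion not named, its level can neither verify nor refute a label. Arg1 differed by -0.37 between the groups (limma adjusted p = 0.522). Without that library 6.14% of all genes passed the test but 0 of the 10, whose median was then -0.17. Wild type 1 and 2 stood apart from the others by transcript length. For genes with transcripts under 1 kb the median deviation from the mean over all libraries reached 0.42 in wild type 1 and 0.21 in wild type 2, and -0.19 to -0.032 in the other 6 libraries. For genes of 4 kb or more it was -0.29 and -0.16, and 0.013 to 0.13 in the others. Wild-type and ko mice carry separate runs of numbers in the labels, and a batch, if these mark one, cannot be told apart from genotype. The labels give the tissue as colon, but according to the protocol the RNA is from epithelium shaken off with 30 mM EDTA. The 12 epithelial markers, led by Lgals4 and Krt8, were all present, with a summed level of 18.26 to 18.76 in wild type and 18.30 to 18.53 in Arg1 ko. Markers of smooth muscle (16.47 to 17.00 and 16.66 to 16.84), led by Myh11 and Acta2, were present too. So were those of fibroblasts (14.81 to 15.19 and 15.20 to 15.34), led by Dcn and Col3a1, whose sums only just did not overlap between the groups. Of the 9 fibroblast markers 8 were higher in Arg1 ko and 1, Dcn, was lower (-0.11). Groups lay apart in 4 of the 9, Col3a1 among them and Dcn not, beside 4.03% of all tested genes. In bulk RNA, fewer cells of a type and less RNA per cell cannot be told apart.

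Levels of different genes can be compared only per transcript length, as the mean rlog of the 8 libraries less the log2 of the length in kb. By the longest coding transcript, Gpx2 (12.77), Prdx1 (12.69) and Gpx1 (12.55) led. These 3 neighbours lie closer together than their SDs within wild type, which are 0.62, 0.41 and 0.48. Txnrd1 (11.06), Srxn1 (10.82), Nqo1 (10.33) and Gclc (10.16) followed, and Gclm (8.94) and Sod2 (8.62) came next. In this middle range Txnrd1 and Srxn1 are 0.23 apart, Nqo1 and Gclc 0.17, and Gclm and Sod2 0.32, in each pair less than the larger wild-type range of the pair. Slc7a11 was last at 2.31. The order depends on which transcript the cells use: by the shortest coding transcript Prdx1 stood at 14.60, Gclm at 13.19 and Sod2 at 12.32, with Slc7a11 still last at 4.25.

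The gene of the glutathione route that varied most was Gclc (ENSMUSG00000032350, chr9:77754535-77794485, plus strand, GRCm38). Its rlog was 11.16, 12.10, 11.64 and 13.28 in wild type 1, wild type 2, the library labelled wild type 3 and wild type 4, and 11.69, 11.63, 11.86 and 12.12 in Arg1 ko 1 to 4. Wild type 4 was the highest of all libraries, 2.24-fold above the next, and wild type 1 was the lowest, with all ko libraries between them. Highest and lowest differed 4.37-fold. Averages of 12.04 ± 0.91 (SD, n = 4) for wild type compared with 11.83 ± 0.22 (SD, n = 4) for Arg1 ko, giving a difference of -0.22 (standard error 0.37, 95% interval -1.04 to 0.61, limma adjusted p = 0.804). Its wild-type SD exceeded that of 99.3% of the tested genes and its ko SD that of 92.5%. The sign of the difference rests on wild type 4: leaving out that library gave 0.19. Leaving out wild type 1 kept the sign and gave -0.51. After a correction for transcript length wild type 4 was still the highest at 13.30 and wild type 1 the lowest at 11.22, and the difference was -0.26.

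Gclm, the modifier subunit of the same enzyme (ENSMUSG00000028124, chr3:122245557-122270732, plus strand), kept the same lowest and highest library as Gclc with a much smaller span. Its values were 11.08, 11.50, 11.28 and 11.69 in wild type and 11.38, 11.33, 11.42 and 11.67 in Arg1 ko, in the same order of libraries. Arg1 ko 4 lay beside wild type 4 at the top, and the groups overlapped. Wild type averaged 11.39 ± 0.27 (SD, n = 4) while Arg1 ko averaged 11.45 ± 0.15 (SD, n = 4), giving a difference of 0.059 (standard error 0.14, 95% interval -0.25 to 0.37, limma adjusted p = 0.863), which was -0.044 without wild type 1 and -0.063 after the length correction.

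Slc7a11, the cystine transporter (ENSMUSG00000027737, chr3:49892526-50443614, minus strand), was a weak gene, and only 18.8% of the tested genes had a lower mean. The rlog step shrinks differences of such genes. It had 5.93, 5.49, 5.69 and 5.09 in wild type and 5.36, 5.25, 5.81 and 5.53 in Arg1 ko. Here wild type 1 was the highest library and wild type 4 the lowest, the reverse of Gclc and Gclm. Its wild-type SD was 0.36, beside 0.25 among the ko mice. The difference was -0.061 (standard error 0.19, 95% interval -0.49 to 0.37, limma adjusted p = 0.898), and it was 0.065 without wild type 1.

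Nqo1, the quinone reductase often used as a readout of Nrf2 (ENSMUSG00000003849, chr8:107388225-107403206, minus strand), was at the same mean in both genotypes within its spread. Its values were 10.87, 11.11, 10.53 and 11.31 in wild type and 10.82, 10.82, 11.02 and 11.27 in Arg1 ko. The lowest was the library labelled wild type 3 and the highest was wild type 4, closely followed by Arg1 ko 4. Averages of 10.96 ± 0.34 (SD, n = 4) for wild type compared with 10.98 ± 0.22 (SD, n = 4) for Arg1 ko, giving a difference of 0.026 (standard error 0.17, 95% interval -0.36 to 0.41, limma adjusted p = 0.953). It was -0.12 without the library labelled wild type 3 and 0.15 without wild type 4.

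In the thioredoxin arm, the reductase Txnrd1 and the repair enzyme Srxn1 varied little. Txnrd1 (ENSMUSG00000020250, chr10:82833951-82897712, plus strand) had 12.66, 12.91, 12.93 and 13.14 in wild type and 12.84, 12.81, 12.97 and 13.04 in Arg1 ko. Like Gclc and Gclm it was lowest in wild type 1 and highest in wild type 4, over a span of 1.39-fold. Its difference was 0.0061 (standard error 0.12, 95% interval -0.26 to 0.27, limma adjusted p = 0.984). Srxn1 (ENSMUSG00000032802, chr2:152105516-152111376, plus strand) had 12.26, 12.59, 12.31 and 12.07 in wild type and 12.23, 12.24, 12.36 and 12.44 in Arg1 ko. It was the one gene of the 10 with wild type 2 at the top, and wild type 4, where Txnrd1 was highest, was its lowest library. Its difference was 0.0082 (standard error 0.12, 95% interval -0.26 to 0.27, limma adjusted p = 0.977). The sign of both differences turned with aligned library medians (-0.023 and -0.021). The intervals of both genes leave room for a difference of up to 0.27 either way.

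Prdx1, the peroxiredoxin (ENSMUSG00000028691, chr4:116685544-116700822, plus strand), was led by the pair of wild type 1 and 2. It had 14.44, 14.28, 13.66 and 13.67 in wild type and 13.69, 13.66, 13.80 and 13.87 in Arg1 ko. Wild type 1 and 2 lay above all ko libraries, while the other wild-type libraries lay level with the lowest of them. Wild type averaged 14.01 ± 0.41 (SD, n = 4) while Arg1 ko averaged 13.76 ± 0.10 (SD, n = 4), giving a difference of -0.26 (standard error 0.18, 95% interval -0.67 to 0.15, limma adjusted p = 0.577). It was 0.093 without wild type 1 and 2, an alternative added after seeing the data.

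Gpx1 (ENSMUSG00000063856, chr9:108338903-108340343, plus strand), the widely expressed glutathione peroxidase, had the difference of largest size among the 10, and it followed the same pair of libraries. Its values were 13.37, 13.08, 12.31 and 12.57 in wild type and 12.38, 12.48, 12.59 and 12.39 in Arg1 ko. Wild type 1 and 2 again lay above every other library, and the library labelled wild type 3 was the lowest. Averages of 12.83 ± 0.48 (SD, n = 4) for wild type compared with 12.46 ± 0.10 (SD, n = 4) for Arg1 ko, giving a difference of -0.37 (standard error 0.20, 95% interval -0.83 to 0.083, limma adjusted p = 0.525). With the library labelled wild type 3 left out it was -0.55 (limma adjusted p = 0.0855). Its adjusted p spanned 2.1e-05, from array weights, to 0.941 across alternatives. Dropping the lowest of the wild-type values makes such a difference larger by construction. It was 0.018 without wild type 1 and 2 and -0.22 after the length correction, which moved wild type 1 from 13.37 to 13.02.

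Gpx2 (ENSMUSG00000042808, chr12:76792333-76795554, minus strand), the epithelial glutathione peroxidase, differed from Gpx1 in its ko libraries. It had 13.72, 13.06, 12.46 and 12.39 in wild type and 12.50, 12.65, 13.19 and 12.90 in Arg1 ko. Wild type 1 was the highest by 0.53, and Arg1 ko 3 came next, above wild type 2. Wild type averaged 12.91 ± 0.62 (SD, n = 4) while Arg1 ko averaged 12.81 ± 0.30 (SD, n = 4), giving a difference of -0.10 (standard error 0.28, 95% interval -0.72 to 0.52, limma adjusted p = 0.883). It was 0.17 without wild type 1, 0.38 without wild type 1 and 2 and 0.051 after the length correction. Its SDs exceeded those of 96.4% of the tested genes in wild type and of 97.4% in Arg1 ko. Gpx2 lies inside Fntb on the opposite strand (mean rlog 8.97), and no source used here gives the strand setting of the counting. Summed proliferation markers, led by Mki67 and Top2a, were also highest in Arg1 ko 3 (13.52) and, within wild type, in wild type 1 (13.03). They were lowest of all in wild type 2 (12.23), where Gpx2 was at 13.06. The library labelled wild type 3 had 12.97, wild type 4 had 12.36, and the other ko libraries had 12.95 to 13.21. All 10 of these markers were higher in Arg1 ko (median 0.53), and their part in the Gpx2 values was not tested.

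Sod2, the mitochondrial superoxide dismutase (ENSMUSG00000006818, chr17:13006846-13040063, plus strand), was nearly constant in the ko mice. It had 11.51, 11.38, 11.01 and 11.07 in wild type and 11.04, 11.12, 11.13 and 11.09 in Arg1 ko. Wild type 1 and 2 were above all other libraries, which lay between 11.01 and 11.13. Averages of 11.24 ± 0.24 (SD, n = 4) for wild type compared with 11.10 ± 0.044 (SD, n = 4) for Arg1 ko, giving a difference of -0.14 (standard error 0.12, 95% interval -0.41 to 0.12, limma adjusted p = 0.617). It was 0.056 without wild type 1 and 2, and the length correction, which takes its 5861-base transcript as long, made it larger at -0.27. Red blood cell markers, led by Hbb-bs and Bpgm, were likewise highest in wild type 1 and 2 (14.86 and 14.47, against 12.94 in the library labelled wild type 3, 13.83 in wild type 4 and 12.92 to 13.53 in Arg1 ko). Neutrophil markers, led by Ly6g and S100a9, had 10.22, 10.93, 9.27 and 10.34 in wild type and 9.25 to 9.68 in Arg1 ko. Of the 11 neutrophil markers tested 8 were lower in Arg1 ko, Ly6g (-1.35) among them. The 3 higher ones were Csf3r (0.28), Mmp9 (0.19) and Clec4e (0.028). None of the 7 red cell or 12 neutrophil markers was at 0, and their part in the values of Sod2, Prdx1 and Gpx1 was not tested.

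Without the library labelled wild type 3 the differences of the genes not yet given that way were -0.35 for Gclc, 0.024 for Gclm, -0.013 for Slc7a11, 0.012 for Txnrd1, 0.008 for Srxn1, -0.37 for Prdx1, -0.25 for Gpx2 and -0.22 for Sod2. Those of Gclc, Prdx1, Gpx2 and Sod2 were more negative than with 8 libraries, and those of Gclm, Slc7a11, Txnrd1 and Srxn1 stayed near 0.

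**Figure D2:**
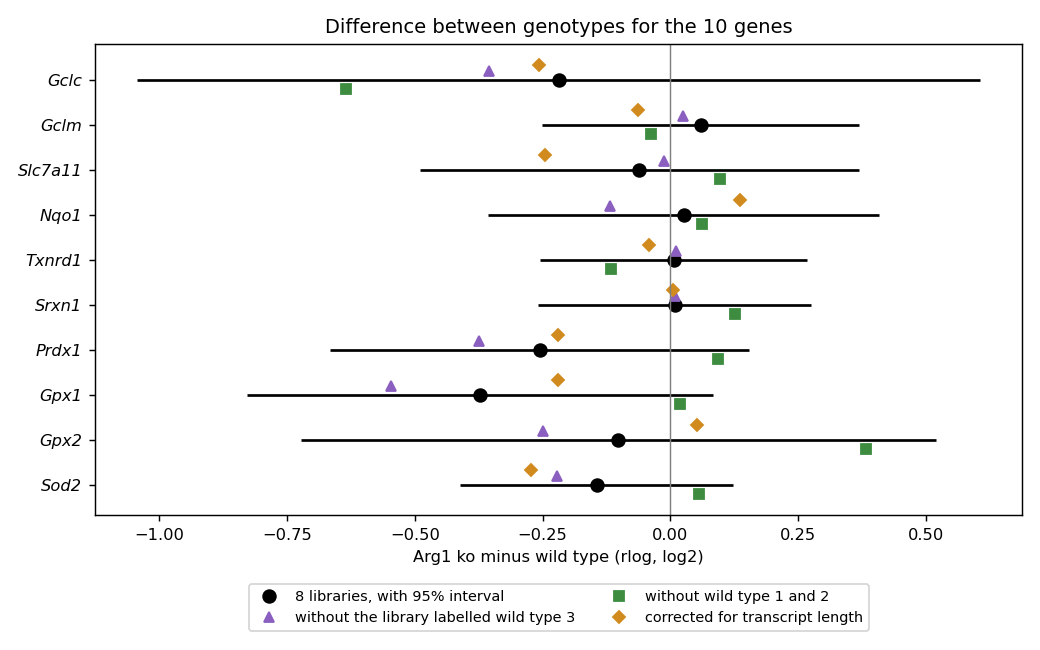
Difference between Arg1 ko and wild type (horizontal axis, rlog, log2) of the 10 genes (vertical axis) with all 8 libraries and its 95% interval (black), and the estimate under 3 alternatives (coloured). Every interval holds 0, and without wild type 1 and 2 Gpx1 moved from -0.37 to 0.018 and Gpx2 from -0.10 to 0.38.

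Across libraries the 10 genes fell into no single common profile. Gclc, Gclm, Nqo1 and Txnrd1 were all highest in wild type 4, and 3 of these 4 were lowest in wild type 1, Nqo1 being lowest in the library labelled wild type 3. Prdx1, Gpx1, Gpx2, Sod2 and Slc7a11 were all highest in wild type 1. Wild type 1 thus held the highest value of 5 and the lowest of 3 of the 10 genes, and wild type 4 the highest of 4 and the lowest of 3. Likeness was measured as the root mean square difference of 2 profiles over the 8 libraries, each centred on its own mean. The closest pair among the 10 was Gclm and Txnrd1 (0.0852), both with a response element core in their promoter windows above. Next came Gpx1 and Prdx1 (0.128), Sod2 and Prdx1 (0.134) and Gclm and Nqo1 (0.152). This measure favours genes of small span, so Gclc, whose nearest was Gclm at 0.431, appears far from all. The 4 genes with a core in the window did not share a profile: Gclm and Txnrd1 peaked in wild type 4, Srxn1 in wild type 2 and Prdx1 in wild type 1.

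**Figure D3:**
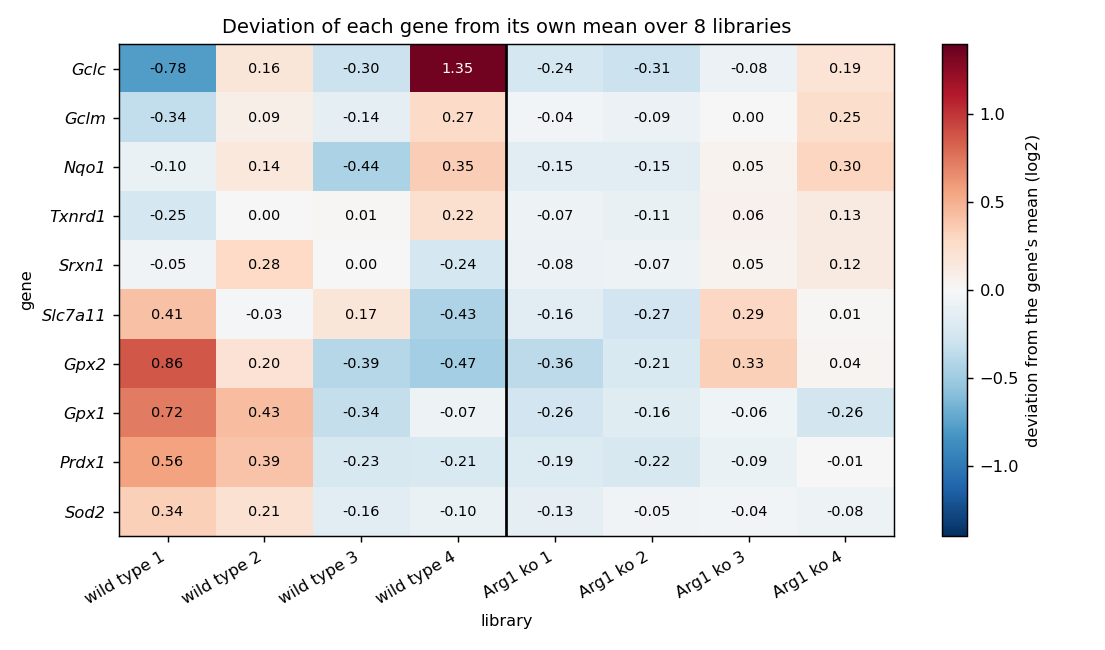
Deviation of each of the 10 genes (rows) from its own mean in each of the 8 libraries (columns), on the log2 scale, red above and blue below the mean. The column wild type 3 is the library labelled so. Gclc was 1.35 above its mean in wild type 4 and 0.78 below it in wild type 1, where Gpx2 was 0.86 above.

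Among all tested genes, those nearest in profile were sought for the 3 genes that varied most. Nearest to Gclc were Irs2 (0.162), an adaptor of the insulin receptor, Gnal (0.198), a G protein subunit, and Slc6a6 (0.206), the taurine transporter. Each of these 3 was highest in wild type 4, Irs2 at 12.06 beside 9.90 to 10.76 in the other libraries, and lowest in wild type 1. Nearest to Gpx2 were Nhp2 (0.11), a protein of small nucleolar particles, Lsm4 (0.113), a splicing factor, and Dut (0.114), which clears dUTP. Nearest to Gpx1 were Psmb4 (0.027) and Psmb1 (0.0345), both subunits of the proteasome core, and Trappc2l (0.0342), of a vesicle tethering complex. These genes share libraries and their length-dependent shifts with the 10, so likeness is a description.

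The wild-type libraries spread more than the ko libraries in all 10 genes. The SD ran from 0.19 for Txnrd1 to 0.91 for Gclc in wild type and from 0.044 for Sod2 to 0.30 for Gpx2 in Arg1 ko, with medians of 0.35 and 0.13. This is near the background: 90.9% of all tested genes had the larger SD in wild type, with medians of 0.26 and 0.096. The pattern therefore does not set the 10 genes apart. The exceptions among the alternatives were Slc7a11 without wild type 4, and Gpx2 and Prdx1 without wild type 1 and 2, where the wild-type SD was not the larger one.

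By the longest coding transcript, the length shift of wild type 1 and 2 reaches the length classes of some of the 10 genes and not others. Gpx2 (1067 bases) and Gpx1 (1072 bases) have short transcripts and stood 0.86 and 0.72 above their means in wild type 1. Sod2 (5861 bases) and Slc7a11 (9223 bases) have long ones, for which wild type 1 was low over all genes, yet they stood 0.34 and 0.41 above theirs. Gclc (3423 bases) and Prdx1 (2294 bases) fall in the class from 2 to 4 kb, whose median deviation was between -0.019 and 0.015 in every library. The class depends on which transcript the cells use, which is not known here. The shortest coding transcripts of Sod2 (451 bases), Prdx1 (611), Gclm (292), Txnrd1 (581) and Gpx1 (653) are all under 1 kb. After the correction the highest library stayed the same in 9 of the 10 genes, the exception being Gclm, where it became wild type 2 (11.66). The lowest library changed in 3 genes, to wild type 1 in Nqo1, to the library labelled wild type 3 in Gclm and to Arg1 ko 2 in Prdx1. In Prdx1 that value, 13.68, lay below all wild-type values, so all ko values stayed inside the wild-type range in 9 of the 10 genes.

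**Figure D4:**
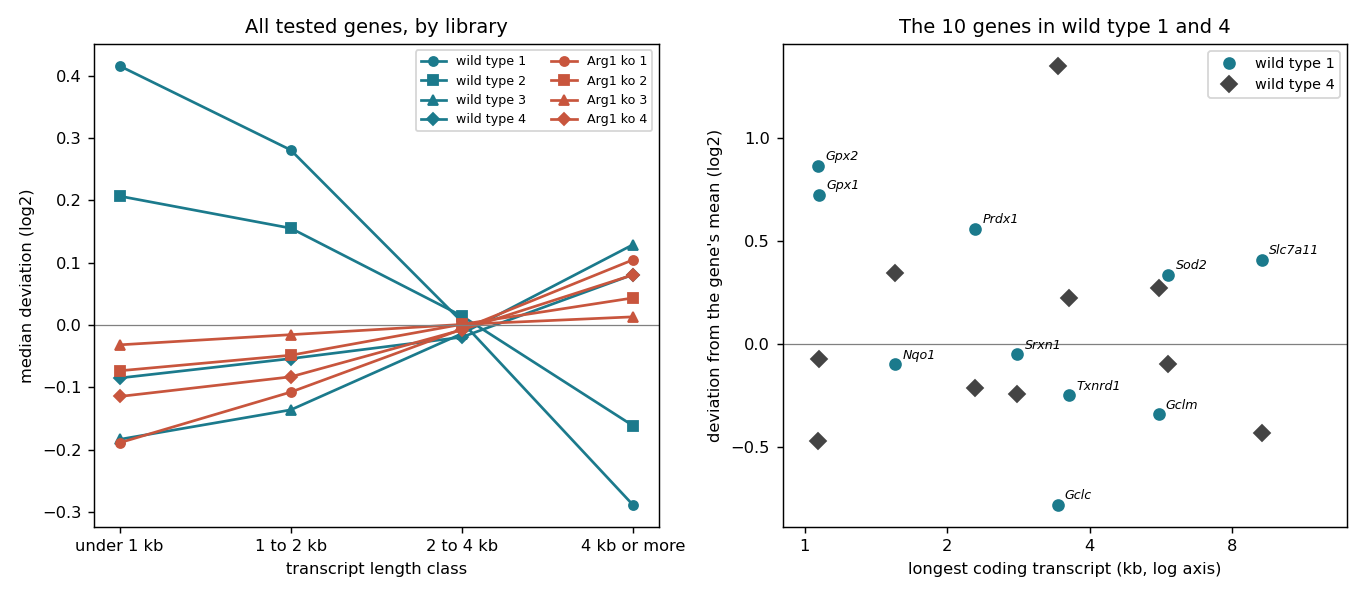
Left, median deviation of all tested genes from their means (log2) in 4 classes of transcript length, 1 line for each library. Right, deviation of the 10 genes in wild type 1 and wild type 4 against the length of the longest coding transcript (kb, log axis). On the left wild type 1 runs from 0.42 for the shortest to -0.29 for the longest class, and on the right Gclc in wild type 4 lies 1.35 above its mean.

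The rest of the pathway was read from 7 lists with 125 further genes, of which 122 were tested. Gpx5 and Gpx6 were listed at 0, and Aldh3a1 was below the filter. In Arg1 ko 39 of the 122 genes were higher and 83 lower, at a median of -0.13 beside 0.0064 over all genes. The number past the adjusted threshold was 0 (limma), and at an unadjusted p under 0.05 there were 12, 4 higher and 8 lower, a share of 9.84% beside 9.1% over all genes. Groups lay apart in 4 of them, Anpep and Chac2 on the higher and Slc3a2 and Txnip on the lower side, where 4.03% of all tested genes did so. The direction depends on wild type 1 and 2: without both, 75 of the 122 genes were higher, and the median was 0.042. It did not turn with the correction for transcript length, after which 36 were higher and 86 lower, at a median of -0.061. Of the 10 genes 3 were then higher and 7 lower (median -0.14), beside a median of -0.008 over all genes. Without the library labelled wild type 3, 13 passed, 2 higher and 11 lower, beside 6.14% over all genes. On the higher side these were Ugt1a6a and Anpep. On the lower side they were Rbx1, Hmox1, Gsta3, Gss, Glrx, Gpx3, Sod1, Selenok and Selenos, and, named after their values were seen, Mgst1 and Gsta1. With limma's array weights 95 of the 122 passed, and 4 of the 10 genes, Srxn1, Gpx1, Sod2 and Prdx1, all lower. In that fit 66.2% of all genes passed, the weighting did not converge, and wild type 2 weighed 16.4, while wild type 1, wild type 4 and the library labelled wild type 3 weighed between 0.135 and 0.304.

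The regulators of Nrf2 showed small differences. Of 15 tested, 6 were higher and 9 lower, with a median of -0.0072. Nfe2l2 itself had 12.48, 12.50, 12.58 and 12.69 in wild type and 12.63, 12.57, 12.60 and 12.59 in Arg1 ko. Keap1 was at 11.08, 10.94, 10.70 and 10.62 in wild type and at 10.76 to 10.92 in Arg1 ko. Bach1, the repressor, had 9.90, 10.34, 10.84 and 11.44 in wild type and 10.55 to 10.70 in Arg1 ko. Its extremes were thus the same libraries as those of Gclc. Maff, a small Maf partner, had 10.52 in wild type 4 and 8.42 to 8.95 in the other 7 libraries, and its difference of -0.51 was -0.054 without wild type 4. Sqstm1, which binds Keap1 and is itself an Nrf2 target, had a difference of -0.41 (limma adjusted p = 0.522), and of -0.26 without wild type 4. Rbx1, a subunit of the cullin ligase, differed by -0.35 and Nfe2l3, a relative of Nrf2, by -0.16, neither past the test.

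Of 35 other Nrf2 targets tested, 15 were higher and 20 lower, with a median of -0.068, and 4 had an unadjusted p under 0.05. Hmox1, the heme oxygenase that also responds to heme, had 9.09, 8.96, 8.21 and 8.86 in wild type and 8.28, 8.30, 8.42 and 8.56 in Arg1 ko. Only the library labelled wild type 3 kept the groups from lying apart. Its difference of -0.39 did not pass with 8 libraries (limma adjusted p = 0.522). Leaving that library out gave -0.58 (limma adjusted p = 0.0324), and leaving out wild type 1 and 2 gave -0.14. Ugt1a6a, a glucuronosyltransferase, had 5.98, 6.49, 7.01 and 6.18 in wild type and 7.23, 6.90, 7.08 and 7.17 in Arg1 ko, a difference of 0.68. Gstm3 (0.64) and Gsta3 (-0.52), both glutathione transferases, and Ces2a (0.38), a carboxylesterase, made up the rest of the 4, in opposing directions. Their adjusted p was 0.522 in each case (limma). Genes of the Ugt1a locus share exons and the glutathione transferases are close paralogs, so reads may be split between them.

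In glutathione metabolism 6 of 22 genes were higher and 16 lower (median -0.15), and 3 had an unadjusted p under 0.05. Slc3a2, the heavy chain with which Slc7a11 forms the cystine transporter, had 10.97, 11.30, 10.97 and 11.16 in wild type and 10.79, 10.89, 10.75 and 10.80 in Arg1 ko. All ko values lay below all wild-type values, and the difference was -0.29 (limma adjusted p = 0.522). Slc3a2 also serves other amino acid transporters. Anpep, an aminopeptidase that takes part in the breakdown of extracellular glutathione, differed by 0.38 and Glrx, a glutaredoxin, by -0.32. Gss, which completes glutathione, differed by -0.32 and Gsr, which recycles it, by -0.064. Chac2, which degrades glutathione and was picked after its value was seen, differed by 0.42.

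The 4 other tested glutathione peroxidases were all lower in Arg1 ko, like Gpx1 and Gpx2, with a median of -0.29, and none passed. Without wild type 1 and 2, 3 of these 4 were higher and 1 lower, with a median of 0.042. Gpx3, the secreted form, had 12.39, 12.53, 11.94 and 12.50 in wild type and 11.83, 12.25, 11.90 and 11.66 in Arg1 ko, a difference of -0.43. Gpx4, which protects membrane lipids, differed by -0.42, and by 0.0076 without wild type 1 and 2. Gpx7 differed by -0.16 and Gpx8 by -0.14.

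In the thioredoxin and peroxiredoxin system 17 of 19 further genes were lower, with a median of -0.19, and 1 had an unadjusted p under 0.05. That gene was Txnip, the thioredoxin-binding inhibitor, with 15.06, 15.51, 15.04 and 16.35 in wild type and 14.996, 14.79, 14.82 and 14.83 in Arg1 ko. The groups lay apart, with the library labelled wild type 3 and Arg1 ko 1 next to each other, and wild type 4 stood highest. Sesn1, a sestrin, was likewise highest in wild type 4, at 12.04 beside 9.91 to 10.76, with a difference of -0.74 (limma adjusted p = 0.522). Without wild type 4 the differences were -0.32 for Sesn1 and -0.34 for Txnip, in place of -0.63. Txn1, thioredoxin itself, differed by -0.33, Prdx2 by -0.27, Txnl1 by -0.23 and Prdx6 by -0.062. Txn1 and Prdx2 were highest in wild type 1 and then wild type 2, as Prdx1 was. They differed by -0.14 and -0.10 without wild type 1, and by 0.015 and 0.12 without both libraries. Of the 19 genes 10 were higher and 9 lower without both libraries, with a median of 0.016.

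Among 8 further enzymes and helpers of superoxide and hydrogen peroxide removal 2 were higher and 6 lower, none with an unadjusted p under 0.05. Sod1, the cytosolic superoxide dismutase, had 13.76, 13.53, 12.74 and 13.26 in wild type and 12.80, 13.03, 13.04 and 12.92 in Arg1 ko, a difference of -0.37. It was -0.23 without wild type 1, -0.050 without wild type 1 and 2, and -0.57 without the library labelled wild type 3. Its copper chaperone Ccs differed by -0.30. Cat, catalase, differed by 0.087 and Aifm2 and Park7 by -0.15 and -0.23. Of 21 genes of selenoprotein synthesis and other selenoproteins 8 were higher and 13 lower (median -0.091). Selenos (-0.34) and Selenok (-0.34), both of the endoplasmic reticulum membrane, had an unadjusted p under 0.05, and Selenoo (-0.28) and Selenot (0.19) did not.

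**Figure D5:**
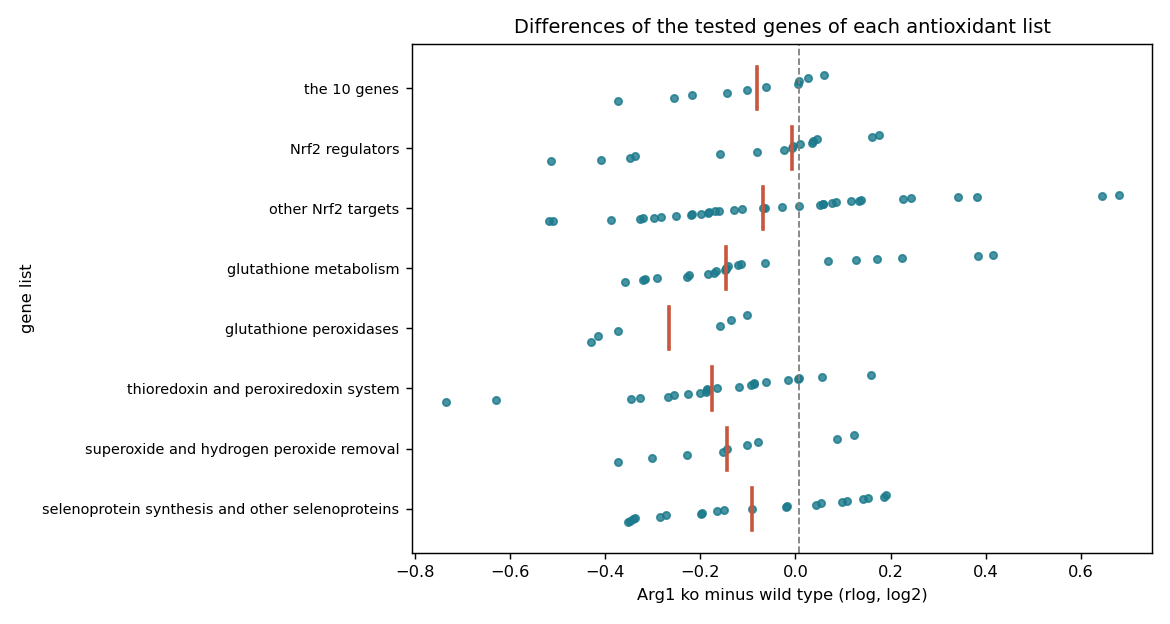
Difference between Arg1 ko and wild type (horizontal axis, rlog, log2) of each tested gene (points) in the 7 antioxidant lists and of the 10 genes. The lists of peroxidases, the thioredoxin system and superoxide removal include those of the 10 that belong there. Red bars are list medians, -0.082 for the 10 genes, and the dashed line is the median of all tested genes, 0.0064.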

How the data were processed

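The authors deposited a table of log2 values named as rlog, the regularised logarithm of gene counts that DESeq2 offers. The submitters' processing notes name DESeq2 1.16.1, BWA 0.7.14-r1136, STAR 2.5.2b and Subread 1.5.3 with featureCounts, on GRCm38, without order or options. Libraries were made from 1000 ng of RNA with a stranded kit, per the labels' protocols. Counts are not recoverable from rlog values, so depth is unknown, no counting interval can be given, and the number of libraries limits the precision. Samples were grouped by labelled genotype. P-values set the difference between the groups against the spread between mice within them. That spread is pooled over both groups, although 90.9% of the tested genes had the larger SD in wild type.

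Genes whose mean rlog reached 3 were fitted with limma 3.58.1 (R 4.3.3; empirical Bayes with variance trend, 8 libraries, two-sided, Benjamini-Hochberg at 0.05). Positions and lengths come from GENCODE vM21 on GRCm38, promoters from RefSeq. Alternatives were other filters, scalings, priors and array weights, and leaving out each library. The length correction, a natural spline in length (5 degrees of freedom, 16361 genes) for each library, and the fit without wild type 1 and 2 were added after seeing the data. Marker levels are log2 sums of 2 to the power of rlog. The members and lists were chosen with earlier results of these data known. Besides the 10 genes, the text names 13 genes whatever their values, up to 4 genes of smallest p per list, the nearest 3 profiles and the 2 highest markers per cell type. On simulated data of 16380 genes for Arg1 ko against wild type, the fit recovered 25.4%, 80.4% and 97.4% of genes changed by 0.5, 1 and 2 on the log2 scale, with 9 false calls. The simulated noise was independent between genes and had the same SD in both groups. It held neither the larger wild-type spread nor the length shifts of the real libraries, so these rates may not hold for them.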

Additional observations from a re-analysis of the deposited data

Results flagged for a closer look

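Among 112 groups of 4 libraries examined, 4 held a library far from the other 3. About 1 in 20 groups would be flagged by chance alone if the groups were independent. The groups come from the same libraries and are not independent, so the count was not tested against chance. The measure was the gap to the nearest library divided by the range of the group, judged by Dixon's critical value. In all 4 it was the library labelled wild type 3, which lay below the other wild-type libraries. Its Arg1 value was 5.02 beside 5.57 to 5.59 (0.973), and its Gsta3 value was 9.04 beside 9.74 to 9.84 (0.873). Its Gss value was 11.92 beside 12.54 to 12.64 (0.857), and its Selenos value was 10.73 beside 11.21 to 11.29 (0.854). None of the 10 genes was among them, Gclc in wild type 4 included.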

How the results depend on the processing

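With 8 libraries 0 genes were called, and the counts ranged from 0 to 1005 for all genes and from 0 to 13 for the listed genes when 1 library was left out, the highest without the library labelled wild type 3. Among the 10 genes the count stayed at 0 when any library was left out. Array weights called 10836, 95 and 4 of them. No paired analysis was possible because replicate numbers were given in deposit order and tie no wild-type mouse to a ko mouse.

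Signs of small differences turned. Array weights gave Nqo1 -0.062, Gclm -0.0023, Srxn1 -0.24 and Slc6a6 0.039. The length correction gave Gclm -0.063, Txnrd1 -0.042, Gpx2 0.051, Bach1 -0.12 and Gpx8 0.019. Aligned medians, which shift all genes by a median of -0.029, gave Nqo1 -0.0035, Txnrd1 -0.023, Srxn1 -0.021 and Bach1 -0.019. Quantile normalisation gave Gpx2 0.034, Keap1 0.0071 and Prdx6 0.065. Without wild type 1 and 2 the values were Gclm -0.038, Txnrd1 -0.12, Slc7a11 0.097, Gpx1 0.018, Gpx2 0.38, Sod2 0.056, Prdx1 0.093, Nfe2l2 -0.036, Keap1 0.17, Bach1 -0.50, Gsr 0.051, Txn1 0.015, Cat -0.14, Gpx4 0.0076, Prdx2 0.12, Prdx6 0.38, Gpx7 0.075, Gpx8 0.12, Ccs 0.0007, Park7 0.11, Nhp2 0.22, Lsm4 0.20, Dut 0.22, Psmb4 0.061 and Trappc2l 0.074. Leaving out 1 library at a time gave these lowest and highest values: Nqo1 -0.12 and 0.15, Gclc -0.51 and 0.19, Gclm -0.044 and 0.16, Txnrd1 -0.076 and 0.082, Srxn1 -0.071 and 0.10, Slc7a11 -0.21 and 0.065, Gpx2 -0.28 and 0.17, Keap1 -0.077 and 0.075, Bach1 -0.23 and 0.28, Cat -0.031 and 0.17, Prdx6 -0.32 and 0.13, Irs2 -0.50 and 0.22, Gnal -0.45 and 0.048, Slc6a6 -0.42 and 0.26, Nhp2 -0.37 and 0.032, Lsm4 -0.40 and 0.011, Dut -0.23 and 0.11. For Gpx1, Sod2 and Prdx1 it kept the sign, with -0.55 to -0.19, -0.22 to -0.057 and -0.37 to -0.11. Of the values for single genes 817 kept sign and call, and 57 kept the sign and passed the threshold only under the alternative. A further 77 changed sign, counted whether or not they passed, as Srxn1 did under array weights. The cause was not tested.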
